A study of Mus musculus with 18 samples.

Results

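The short hairpin RNAs shCPSF3#1 and shCPSF3#2, both directed against the mRNA of Cpsf3, were compared with each other in reprogramming mouse embryonic fibroblasts (MEFs). The comparison rests on 4 libraries, 2 per hairpin, of the 18 in the series and of the 12 in its knockdown dataset. All of these MEFs were of the genotype Collagen-OKSM, M2rtta+, in which doxycycline switches on Oct4, Klf4, Sox2 and Myc (OSKM), and came from male embryos. The shCPSF3#1, shCPSF3#2, shSCR (a scrambled, non-targeting hairpin), shUL1#1 and shUL1#2 (2 hairpins against Hnrnpul1) groups were infected with lentivirus at day 0, given doxycycline and LIF, and harvested at day 12. NI cells were not infected and were taken at day 0. Polyadenylated RNA was sequenced in 2 libraries per group. Infected cells were sorted for GFP at day 2 and grown on irradiated feeder cells that were harvested with them, so RNA of feeder cells can be present in every day-12 library. The study had bought 5 hairpins per target and kept the 2 that lowered it most. No label says that the 2 libraries of a group came from separate cultures, so the spread between them may be technical. In the main fits the p-values measure the spread left after a term for the replicate number (the block), pooled over the day-12 groups.

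CPSF3 (CPSF-73) is the endonuclease of the cleavage and polyadenylation complex, which cuts nascent pre-mRNA at the poly(A) site and, with other partners, cuts histone pre-mRNA. A hairpin is processed into a short guide strand that loads into an Argonaute protein and directs it to a matching mRNA. Pairing of the guide's seed (its bases 2 to 8) alone can also lower other transcripts, so a pair of hairpins against a single target is used to tell effects of the target from effects of a single guide. In MEF reprogramming, cells lose fibroblast expression, divide fast, take on epithelial features and later activate pluripotency genes.

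Both guides match coding exons of Cpsf3 and share no seed. The guide strands are shown first because the sequence is what differs by design between the groups, written 5′ to 3′ with the seed in capitals.
shCPSF3#1 guide: aTAAATTCactggtttgctgg
shCPSF3#2 guide: tTTGAACAccttcagagcagg
The guide of shCPSF3#1 pairs with 21 bases of exon 10 at chr12:21302460-21302480 (mm10, plus strand), and the target reads ccagcaaaccagtgaatttat. The guide of shCPSF3#2 pairs with 21 bases of exon 14 at chr12:21308936-21308956 (plus strand), and the target reads cctgctctgaaggtgttcaaa. Exons are counted from the start of the main transcript, which has 18. Across the annotated transcripts of the 9435 genes listed in the expression table, the longest run of either target found outside Cpsf3 was 15 bases, in Ercc6 for shCPSF3#1 (Ercc6 encodes a DNA repair factor). For shCPSF3#2 the longest run outside Cpsf3 was 14 bases, in Tmem161a.

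Expression was given as scaled CPM, CPM relative to a library size that the authors scaled per library. Cpsf3 (ENSMUSG00000054309) was at 38.6 and 49.99 scaled CPM in the 2 shCPSF3#1 libraries and at 42.4 and 77.1 in the 2 shCPSF3#2 libraries (replicates 1 and 2). In shSCR it was at 86.7 and 117.9, and in NI at 84.7 and 82.2. All 4 libraries thus lay below both shSCR libraries, but the 2 hairpins overlapped: shCPSF3#2 replicate 1 was below shCPSF3#1 replicate 2. Relative to the shSCR library of the same replicate number, 44.6% and 42.4% of Cpsf3 remained with shCPSF3#1 and 48.9% and 65.4% with shCPSF3#2. The difference shCPSF3#2 minus shCPSF3#1 was 0.37 on the log2(scaled CPM + 1) scale (SE 0.16), with a 95% interval from just above 0 to 0.74 and an unadjusted p of 0.0487 by limma. After adjustment over all genes it was not called (adjusted p = 0.113). That interval reaches a ratio of 1.67. The difference rested on replicate 2: it was 0.13 within replicate 1 and 0.62 within replicate 2, and without shCPSF3#2 replicate 1 it was 0.65.

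The remaining Cpsf3 mRNA was also counted exon by exon. Of the exons with reads over their junctions, exon 10 carried 505.9 and 763.2 inclusion reads per 1e8 reads on listed genes (totals that assume 1 read per step of the scaled CPM) with shCPSF3#1 (replicates 1 and 2) and 658.1 and 1309.1 with shCPSF3#2. Exon 14 carried 316.1 and 442.8 with shCPSF3#1 and 353.3 and 681.3 with shCPSF3#2. Neither hairpin left fewer reads over its own target exon than over the neighbours by a margin outside their range: for shCPSF3#1, exon 10 stood at 35.4% and 40.4% of the shSCR library of the same number, within the range of exons 2 to 17. For shCPSF3#2, exon 14 stood at 46.4% and 61.5%, also within that range. No Cpsf3 splicing event passed the test between the hairpins described with the splicing results. The intron after exon 10, the exon targeted by shCPSF3#1, was retained at 10.1 and 6.89% with shCPSF3#1, 6.03 and 5.91% with shCPSF3#2 and 5.97 and 5.15% with shSCR (adjusted p = 0.797 between the hairpins). A 1439-nt intron farther upstream was retained at 6.6 and 5.63% with shCPSF3#1 and 7.49 and 4.47% with shCPSF3#2 (adjusted p = 0.976 between the hairpins by limma). With shSCR it was retained at 1.74 and 1.35% (adjusted p = 0.00188 for the mean of both hairpins against shSCR by limma).

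**Figure D1:**
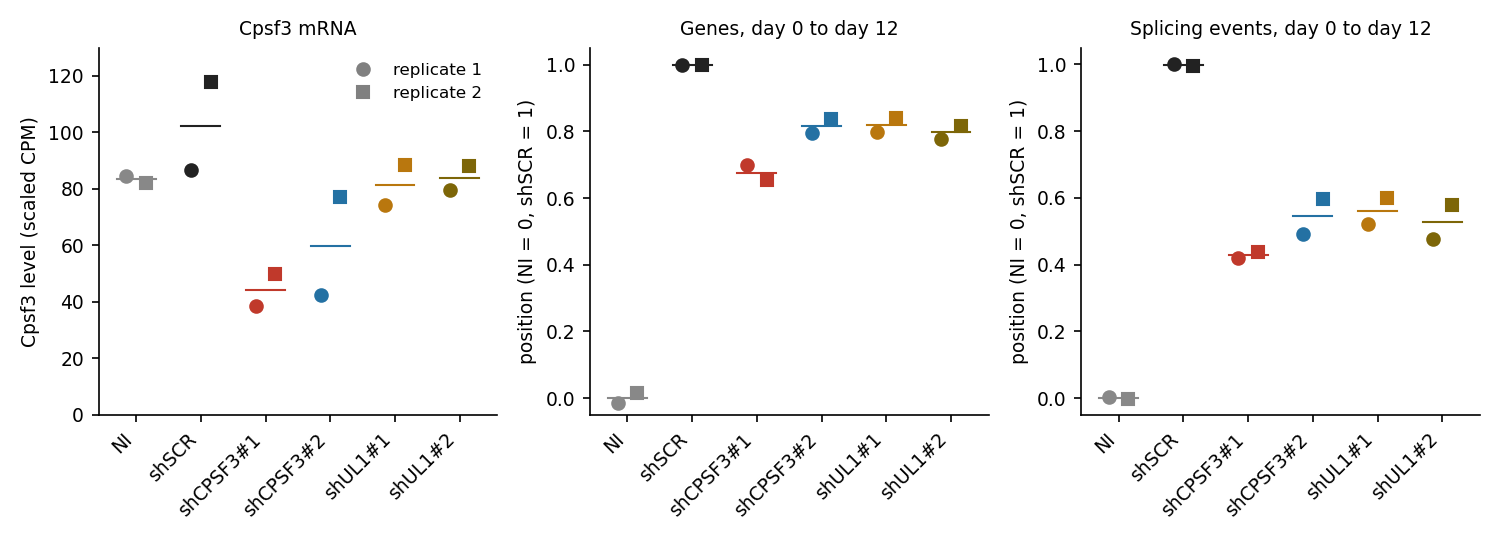
Left, Cpsf3 level in scaled CPM; middle and right, position of each library on a line from NI at day 0 (0) to shSCR at day 12 (1), over 4197 genes and over 4452 splicing events. Points are libraries (circle, replicate 1, and square, replicate 2) and bars are group means. Both shCPSF3#1 libraries have the lowest positions of day 12, and Cpsf3 in shCPSF3#2 replicate 1 (42.4) lies between the shCPSF3#1 libraries. Relative to shSCR of the same replicate number, Cpsf3 was at 48.9% in shCPSF3#2 replicate 1 and at 44.6 and 42.4% with shCPSF3#1.

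Gene expression differed widely between the hairpins. With the replicate number as a block, 2470 of 9435 genes (26.2%) had a limma adjusted p under 0.05, of which 1358 (14.4% of all genes) were higher with shCPSF3#2 and 1112 (11.8%) were lower. Of the called genes, 263 were at least 2-fold higher and 71 at least 2-fold lower with shCPSF3#2. All 2470 differed in the same direction within both replicates, as did 73.4% of all genes. The call depends on the block and on single libraries: without the block 0 genes were called by limma (794 at an unadjusted p under 0.05), and leaving out 1 of the 4 libraries gave from 188 genes (without shCPSF3#2 replicate 2) to 3906 (without shCPSF3#1 replicate 1), with 1083 without shCPSF3#1 replicate 2 and 1618 without shCPSF3#2 replicate 1. Same-numbered libraries moved together in every pair of day-12 groups.

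The largest rises with shCPSF3#2 among genes without overlap are described first. Slc2a3, a glucose transporter, was at 58.0 and 111.0 scaled CPM with shCPSF3#1 and at 209.3 and 506.5 with shCPSF3#2, against 761.5 and 1228.4 with shSCR. The groups did not overlap, as in 44.4% of all genes (21.5% higher and 23.0% lower with shCPSF3#2), and shCPSF3#2 was 4.02-fold higher on the log2(scaled CPM + 1) scale (log2 difference 2.01, SE 0.18, adjusted p = 0.00306). Mybl2, a transcription factor of the cell cycle, was at 34.8 and 105.1 with shCPSF3#1 and at 110.8 and 366.7 with shCPSF3#2 (log2 difference 1.72, SE 0.20, adjusted p = 0.00341). Tet1, which oxidises 5-methylcytosine, was at 24.6 and 72.2 with shCPSF3#1 and at 75.1 and 243.1 with shCPSF3#2 (1.65, SE 0.16, adjusted p = 0.00306). In these genes replicate 2 was higher than replicate 1 in both groups, and the hairpins differed in the same direction within each replicate. Gldc, of the glycine cleavage system, rose from 24.7 and 43.7 to 60.9 and 212.0 (adjusted p = 0.0139). The rest of the 12 largest were Rps6ka6, Enpp3, Chchd10, Bub1, Trim71, Ticrr, Lmnb1 and Aldoc, with log2 differences from 1.64 to 1.86. All 12 were higher with shSCR than with shCPSF3#2 in the replicate means.

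The largest falls with shCPSF3#2 among genes without overlap follow. Robo2, a guidance receptor, was at 55.3 and 38.0 with shCPSF3#1 and at 17.1 and 18.7 with shCPSF3#2 (-1.31, SE 0.20, adjusted p = 0.00682). H2-D1, a class I histocompatibility molecule, was at 610.5 and 343.4 with shCPSF3#1 and at 295.3 and 113.0 with shCPSF3#2 (-1.32, SE 0.19, adjusted p = 0.00608). Against these, shSCR was at 4.07 and 3.07 for Robo2 and at 170.8 and 55.2 for H2-D1. In both genes the hairpins did not overlap and shCPSF3#1 was the group farther from shSCR. Ripk2, a kinase of innate immune signalling, stood out by 1 library, at 207.9 in shCPSF3#1 replicate 1 against 33.7 in replicate 2, and at 32.2 and 15.8 with shCPSF3#2 (-1.85, SE 0.36, adjusted p = 0.0139). Without shCPSF3#1 replicate 1 the difference in Ripk2 was -1.11 (adjusted p = 0.00673), and the call was lost without shCPSF3#2 replicate 1 (-1.59, adjusted p = 0.0598) and without shCPSF3#2 replicate 2 (-2.11, adjusted p = 0.0783). Others among the 12 largest were Ifit3, Ifit1, Isg15, Csf1r, Ptprn, Procr, Rtp4 and Tnfrsf23, with log2 differences from -2.04 to -1.31.

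**Figure D2:**
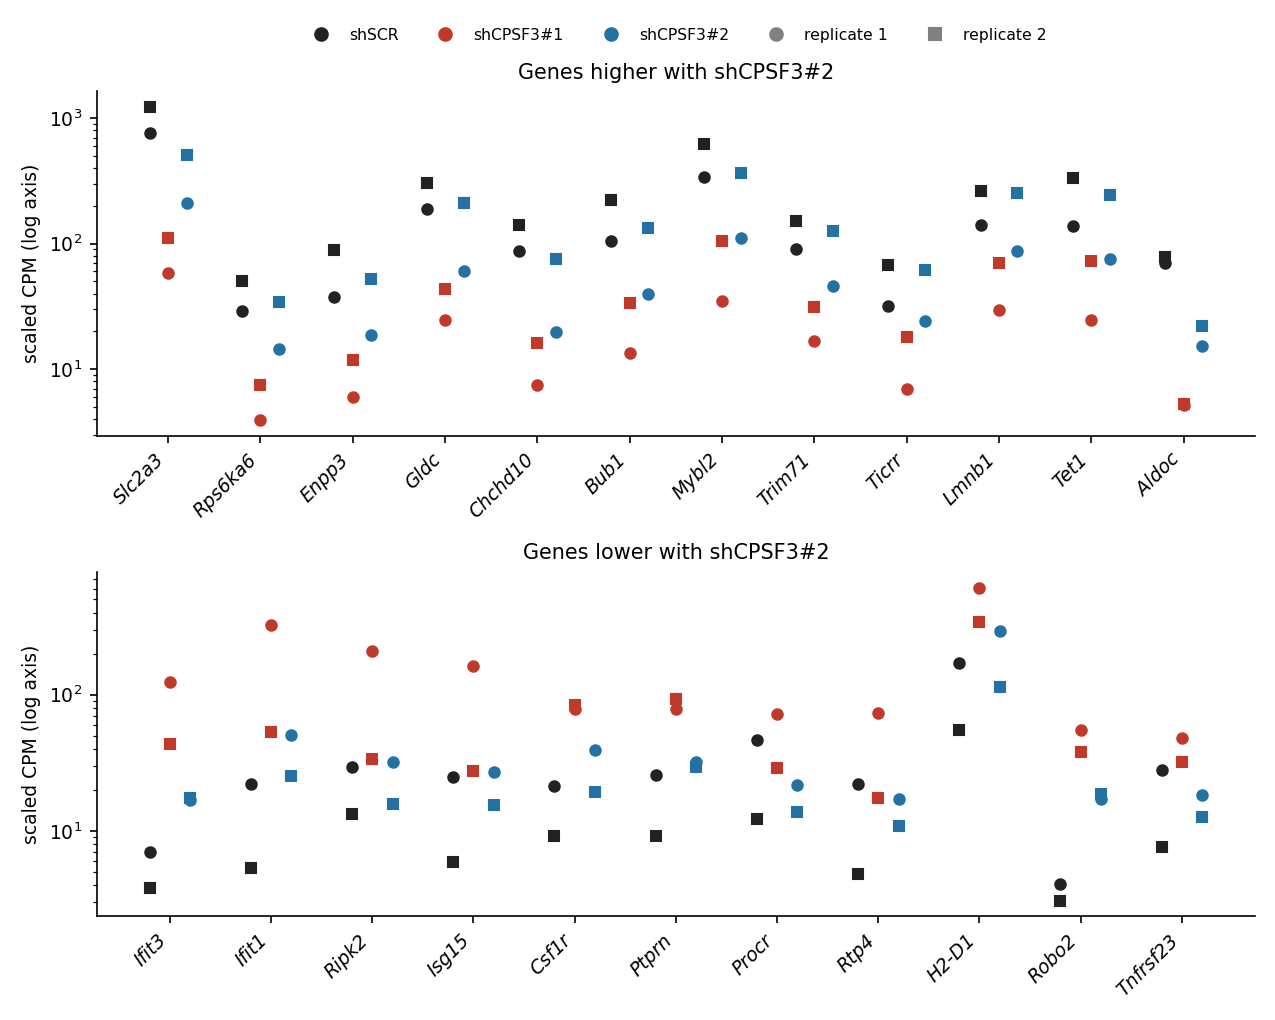
Scaled CPM (log axis) of the 12 genes with the largest rise and 11 of the 12 with the largest fall with shCPSF3#2 among called genes whose libraries did not overlap; each point is a library, coloured by group, circles replicate 1 and squares replicate 2. For Slc2a3 the shCPSF3#1 libraries sit at 58.0 and 111.0, below shCPSF3#2 at 209.3 and 506.5 and shSCR at 761.5 and 1228.4.

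Mitosis genes were higher with shCPSF3#2. All 30 listed mitosis genes were called and higher with shCPSF3#2, where 14.4% of all genes were, with log2 differences from 0.89 to 1.72 and a median of 1.40 (median over all listed genes -0.00486). Mki67, a proliferation marker, was at 25.6 and 54.2 scaled CPM with shCPSF3#1, at 72.8 and 153.9 with shCPSF3#2 and at 111.1 and 204.6 with shSCR (log2 difference 1.48, SE 0.13, adjusted p = 0.00306). Summed over the 30 genes, the level was 532.9 and 1265 with shCPSF3#1, 1376 and 3610.4 with shCPSF3#2 and 2512 and 4742.5 with shSCR. The sum in shCPSF3#2 replicate 1 was thus above both shCPSF3#1 libraries. Of 29 listed DNA replication genes, 28 were higher with shCPSF3#2 and Rrm1 had an adjusted p of 0.104. Mcm5, of the replicative helicase, was at 21.1 and 55.7 with shCPSF3#1 and at 57.2 and 185.3 with shCPSF3#2 (1.56, SE 0.17, adjusted p = 0.00309). The mitosis count was 25 to 30 and the replication count 13 to 28 when each of the 4 libraries was left out, the lowest of both without shCPSF3#2 replicate 2. In these bulk samples, fewer dividing cells and less of these mRNAs per cell cannot be told apart.

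The interferon response list went the other way. Of its 26 listed members, 18 were lower with shCPSF3#2, against 11.8% of all genes, and 0 were higher, and the median log2 difference was -1.04. Ifih1, a sensor of double-stranded RNA, was at 61.4 and 22.2 with shCPSF3#1 and at 21.8 and 9.78 with shCPSF3#2 (-1.28, SE 0.13, adjusted p = 0.00306). Isg15, an interferon-induced ubiquitin-like protein, was at 162.2 and 27.5 with shCPSF3#1 and at 27.0 and 15.6 with shCPSF3#2 (-1.66, SE 0.41, adjusted p = 0.0263). The summed level of the list was 3661 in shCPSF3#1 replicate 1 and 1244 in replicate 2, and 1359.9 and 922.3 with shCPSF3#2, so shCPSF3#1 replicate 1 stood apart. With shSCR the sum was 1298 and 709.7, so shCPSF3#1 replicate 2 lay below shSCR replicate 1. Without shCPSF3#1 replicate 1, 12 of the 26 were lower and 1 was higher, and for Isg15 the difference was -1.02 (adjusted p = 0.0634). The call of Isg15 was also lost without shCPSF3#2 replicate 1 (adjusted p = 0.118) and without shCPSF3#2 replicate 2 (adjusted p = 0.0857). The count of lower members was 21 without shCPSF3#1 replicate 2, 5 without shCPSF3#2 replicate 1 and 3 without shCPSF3#2 replicate 2. The list was also high in shUL1#2 replicate 1, at 2101.

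Some targets of p53, the regulator of the DNA damage response, were lower with shCPSF3#2 as well, and 13 were not called. Of 24 members, 11 were lower and 0 higher by limma (where 11.8% of all genes were lower), with a median log2 difference of -0.32. Cdkn1a, an inhibitor of cell-cycle kinases, was at 1013 and 731.1 with shCPSF3#1 and at 653.0 and 410.5 with shCPSF3#2, against 481.5 and 311.9 with shSCR (-0.73, SE 0.11, adjusted p = 0.00732). Mdm2, the ligase that degrades p53, was at 734.4 and 450.0 with shCPSF3#1 and at 408.0 and 301.3 with shCPSF3#2 (-0.71, SE 0.12, adjusted p = 0.0102). The libraries of the hairpins did not overlap in either gene. Without shCPSF3#2 replicate 2 the count of lower members was 0 by limma. It was 10 without shCPSF3#1 replicate 1, where 2 were higher, and 9 without either of the other libraries.

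Markers of cell identity differed less evenly. Of 7 listed pluripotency genes, 5 were higher with shCPSF3#2, against 14.4% of all genes (Tet1, Tet2, Dnmt3b, Klf2 and Klf5), while Tbx3 and Klf4 had adjusted p-values of 0.249 and 0.656. Klf4 is also a reprogramming transgene, so its reads can come from either source. Dnmt3b, a DNA methyltransferase, was at 26.7 and 97.7 with shCPSF3#1 and at 73.1 and 430.2 with shCPSF3#2, so the groups overlapped, although the difference was called (1.77, SE 0.31, adjusted p = 0.0101). With shSCR it was at 103.0 and 208.3, so shCPSF3#2 replicate 2 lay above both shSCR libraries. Replicate 2 of shUL1#1 (382.7) and of shUL1#2 (273.1) did so too. Of 6 listed epithelial genes, 2 were higher, among them Spint2, a protease inhibitor, at 22.8 and 19.5 with shCPSF3#1 and at 31.2 and 60.9 with shCPSF3#2 (adjusted p = 0.0305). Krt18, an epithelial keratin, was at 13.1 and 18.9 with shCPSF3#1 and at 88.5 and 20.1 with shCPSF3#2 (adjusted p = 0.0831), so its difference lay in replicate 1. Of 30 fibroblast and mesenchymal genes, 3 were lower with shCPSF3#2 (Zeb2, Acta2 and Pdgfrb) and 27 were not called, a share near the 11.8% called lower of all genes, with a median log2 difference of -0.45. Their summed level was 55522 and 58869 with shCPSF3#1 and 54517 and 34812 with shCPSF3#2, so the groups were apart in replicate 2. Without shCPSF3#1 replicate 1, 20 were called lower, and 1, 2 and 0 without shCPSF3#1 replicate 2, shCPSF3#2 replicate 1 and shCPSF3#2 replicate 2. Without shCPSF3#2 replicate 2, 1 pluripotency gene and 0 epithelial genes were called, and without shCPSF3#1 replicate 2, 4 epithelial genes.

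All listed macrophage and blood cell markers had negative log2 differences. Of the 12 markers, 3 were listed (Csf1r, Cd68 and Lyz2), and 2 were lower with shCPSF3#2, where 11.8% of all genes were. Lyz2, a lysozyme of macrophages, was at 1676 and 1207 with shCPSF3#1, at 1187 and 373.7 with shCPSF3#2 and at 248.7 and 131.7 with shSCR (-1.09, SE 0.24, adjusted p = 0.0206). The summed level of the 3 ranged from 1371 to 1814 with shCPSF3#1, from 429.1 to 1282 with shCPSF3#2 and from 170.8 to 300.4 with shSCR, and was 10.6 and 9.57 in NI. Both counts without a replicate 1 library were 3, and both without a replicate 2 library were 0. None of the 3 was at 0 in any library, and the other 9 markers were not analysed here. Their part in the interferon and histocompatibility differences was not tested, nor was that of feeder cells, which are fibroblasts too. Few markers of other cell types were listed. Of the 8 listed endothelial, muscle, neural and adipocyte markers 0 passed the limma test (2 at an unadjusted p under 0.05), with log2 differences from -0.52 to 0.89. The keratinocyte marker Sfn was higher with shCPSF3#2, at 20.9 and 23.1 against 7.05 and 14.6 (adjusted p = 0.0204).

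The cleavage and polyadenylation factors had a smaller median difference than the mitosis genes. Of these 24 factors, a list that includes Cpsf3 itself, 8 were higher with shCPSF3#2 and 0 lower, with a median log2 difference of 0.27. Of all genes, 14.4% were higher, which is the background for the counts of each list here. Clp1, an RNA kinase of cleavage factor II, was at 10.1 and 15.7 with shCPSF3#1 and at 14.5 and 26.6 with shCPSF3#2 (0.60, SE 0.12, adjusted p = 0.0154). Nudt21, which binds UGUA motifs upstream of poly(A) sites, was at 43.2 and 48.2 with shCPSF3#1 and at 54.7 and 82.3 with shCPSF3#2 (0.55, SE 0.12, adjusted p = 0.0199). Cpsf6, Cpsf4, Cpsf1, Cstf2, Cstf1 and Wdr82 were the other 6, at 0.33 to 0.60. Cpsf2, which pairs with CPSF3 in the complex, was at 86.0 and 80.3 with shCPSF3#1 and at 80.7 and 100.2 with shCPSF3#2 (0.11, adjusted p = 0.504), and Sympk, the scaffold of the complex, had a difference of 0.00 (adjusted p = 0.983). Without either replicate 2 library, 0 of the 24 were called by limma, while 14 were called without shCPSF3#1 replicate 1 and 6 without shCPSF3#2 replicate 1. Of 46 splicing regulators, 20 were higher and 2 lower, with Hnrnpa1, which binds exonic silencers, at 305.8 and 402.7 with shCPSF3#1 and at 434.0 and 964.9 with shCPSF3#2 (0.88, SE 0.18, adjusted p = 0.0176). Of 12 genes of the RNA interference machinery, 3 were higher (Drosha, Tnrc6c and Tarbp2). Without shCPSF3#2 replicate 2, 0 of both lists were called by limma, and without shCPSF3#1 replicate 2, 2 and 0. The RNA interference count was 7 without shCPSF3#1 replicate 1 and 2 without shCPSF3#2 replicate 1. Of 17 genes of the Integrator complex and of histone pre-mRNA processing, 4 were higher, among them Slbp, which binds histone mRNA, at 31.8 and 37.3 with shCPSF3#1 and at 39.4 and 67.6 with shCPSF3#2 (adjusted p = 0.0232). That count was 8 without shCPSF3#1 replicate 1, 1 without shCPSF3#1 replicate 2, 5 without shCPSF3#2 replicate 1 and 0 without shCPSF3#2 replicate 2. The counts of this list and of the RNA interference list are near the background. Hnrnpul1, the target of the other hairpins, was at 118.2 and 130.7 with shCPSF3#1 and at 132.5 and 166.4 with shCPSF3#2 (0.25, adjusted p = 0.217).

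**Figure D3:**
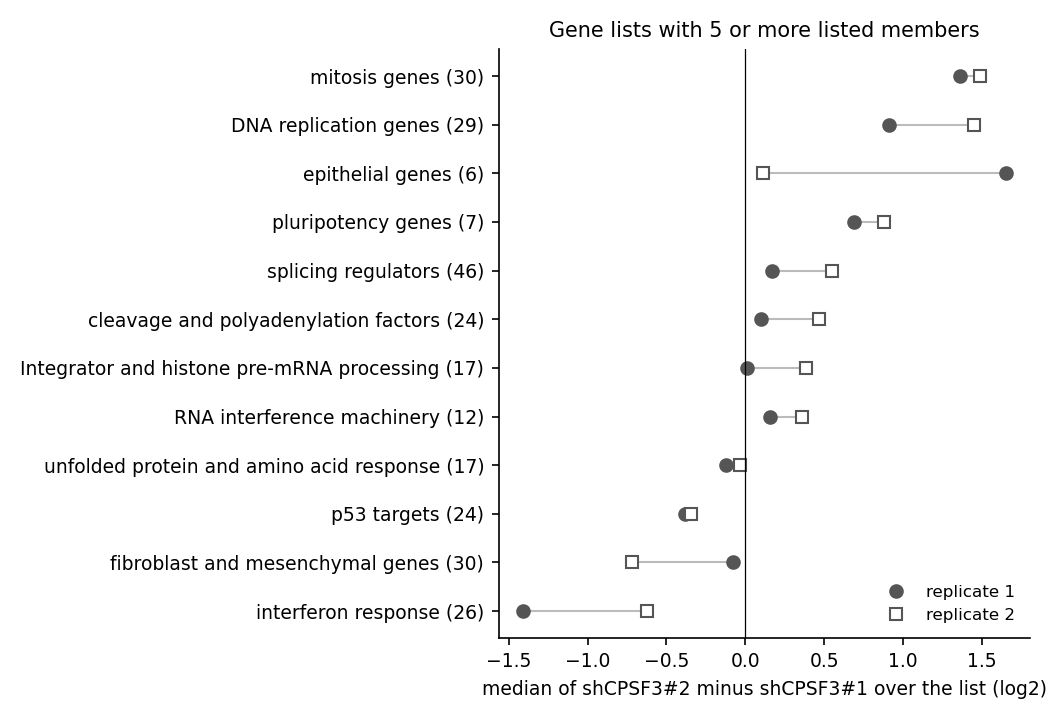
Median log2 difference, shCPSF3#2 minus shCPSF3#1, within replicate 1 (filled circles) and within replicate 2 (open squares) for each gene list with 5 or more listed members (number in brackets). The mitosis list has nearly the same median in both replicates (1.36 and 1.49), the cleavage and polyadenylation factors differ mainly in replicate 2 (0.10 and 0.47) and the interferon list mainly in replicate 1 (-1.41 and -0.62).

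Whether the differences followed the remaining Cpsf3 level was read from the replicates, between which that level differed. In replicate 1 the hairpins left Cpsf3 at 38.6 and 42.4 (a log2 difference of 0.13), and in replicate 2 at 49.99 and 77.1 (0.62). The exon reads of Cpsf3 were also higher with shCPSF3#2 in replicate 1, by a ratio of 1.08 to 1.33 over exons 2 to 17, and in replicate 2 by 1.43 to 1.76, so the size of the replicate 1 difference depends on the measure. Cpsf3 at earlier times was not analysed here. The median log2 difference of the mitosis genes was 1.36 in replicate 1 and 1.49 in replicate 2, and that of the p53 targets was -0.38 and -0.34. Other lists differed more between the replicates. DNA replication genes were at 0.91 and 1.45, splicing regulators at 0.17 and 0.55 and cleavage and polyadenylation factors at 0.10 and 0.47, larger in replicate 2, as were fibroblast genes at -0.08 and -0.72. Interferon genes at -1.41 and -0.62 and epithelial genes at 1.65 and 0.12 were larger in replicate 1. Pluripotency genes at 0.69 and 0.88, RNA interference genes at 0.16 and 0.36 and Integrator and histone processing genes at 0.01 and 0.39 were larger in replicate 2. Over the called genes, the median absolute difference was 0.403 in replicate 1 and 0.707 in replicate 2, and over all genes 0.184 and 0.358. With 1 library per hairpin and replicate, these are values without a test. When log2 Cpsf3 was added to the fit as a covariate, 0 genes were called by limma between the hairpins (1423 at an unadjusted p under 0.05), and 0 for the Cpsf3 term (82 unadjusted). The 2470 genes called before all kept their sign, and their median absolute difference went from 0.559 to 0.454. The covariate takes 1 of 4 residual degrees of freedom. Cpsf3 protein was not measured in these files, and the Cpsf3 level and the hairpin cannot be fully told apart with 2 libraries each.

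**Figure D4:**
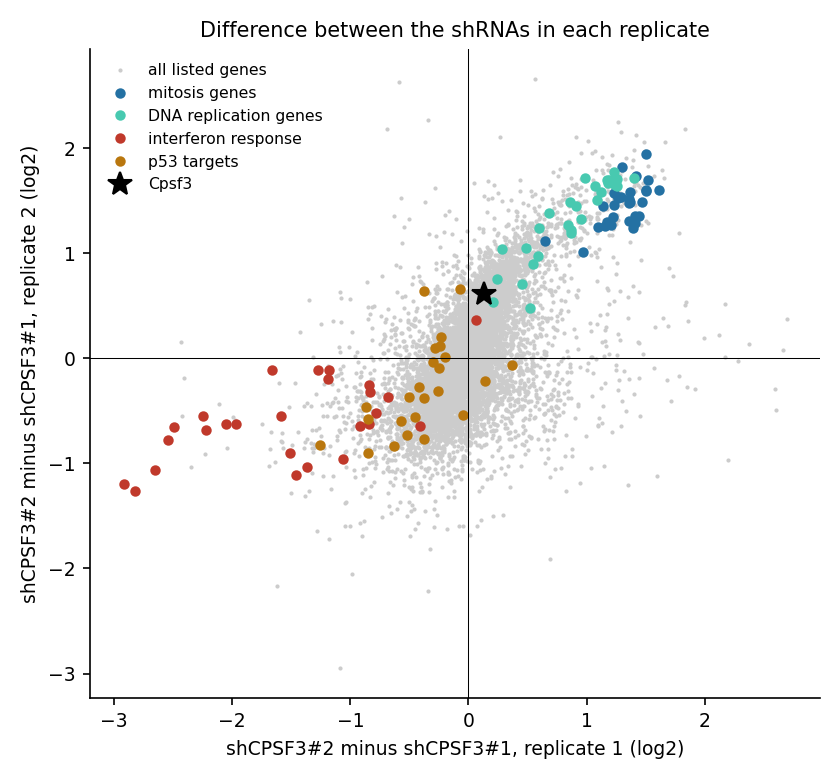
Each point is a gene, placed by its log2 difference between the hairpins in replicate 1 (x axis) and in replicate 2 (y axis), with 4 gene lists in colour and Cpsf3 as a star. Cpsf3 sits at 0.13 and 0.62, while the mitosis genes lie near 1.36 and 1.49 and the interferon genes spread along the x axis.

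Relative to the control, shCPSF3#2 lay between shCPSF3#1 and shSCR for most genes. Against shSCR, 6105 genes (64.7%) were called for shCPSF3#1 and 3026 (32.1%) for shCPSF3#2. These comparisons share the shSCR libraries and are given side by side. Among the 5588 genes (59.2%) called for the mean of both hairpins against shSCR, a selection that weights the hairpins equally, shCPSF3#2 was nearer to shSCR in 5107 (91.4%), as it was in 80.8% of all genes. The median absolute distance from shSCR of those genes was 0.744 with shCPSF3#1 and 0.410 with shCPSF3#2 on the log2 scale. Of the 2470 genes called between the hairpins, the shCPSF3#2 mean lay between shCPSF3#1 and shSCR in 2184 (88.4%, against 72.5% of all genes), the shCPSF3#1 mean lay between shCPSF3#2 and shSCR in 20, and the shSCR mean lay between the hairpins in 266.

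It was then counted how often both libraries of a Cpsf3 hairpin lay outside the range of the other day-12 libraries. Of the 2470 genes, both shCPSF3#1 libraries were above all 8 other day-12 libraries in 649 and below all of them in 760, against 1423 (15.1%) and 1273 (13.5%) of all listed genes. For shCPSF3#2 the counts were 1 and 3, against 12 (0.127%) each. The gene above was Jade2, part of a histone acetyltransferase complex, at 56.0 and 52.6 with shCPSF3#2 and at 40.0 and 37.0 with shCPSF3#1. The 3 genes below were Rap1gap2, 2310022B05Rik and Pgap2. Rap1gap2, which turns off the GTPase Rap1, was at 8.25 and 8.39 with shCPSF3#2, at 20.7 and 16.6 with shCPSF3#1 and at 10.2 and 10.4 with shSCR. These 4 genes were chosen by that pattern. Over the called genes, shCPSF3#2 was near the hairpins against Hnrnpul1: its median absolute log2 distance from the mean of the 4 shUL1 libraries was 0.0853, and that of shCPSF3#1 was 0.554. Over all genes those distances were 0.0776 and 0.264.

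The position of each library between NI at day 0 and shSCR at day 12 was taken over the 4197 genes (44.5%) that differed between these 2 groups, a selection that used none of the shCPSF3 libraries. On a scale from 0 (NI) to 1 (shSCR), the shCPSF3#1 libraries were at 0.698 and 0.654 and the shCPSF3#2 libraries at 0.794 and 0.836. The shUL1 libraries were at 0.778 to 0.840. The difference between the hairpins was 0.0958 in replicate 1 and 0.182 in replicate 2, both in the direction of shSCR. Of the axis genes, shCPSF3#2 was further along in 2918 (69.5%, against 61.0% of all genes). Of the 988 axis genes called between the hairpins, 819 were further along with shCPSF3#2 and 169 with shCPSF3#1. The 988 were 23.5% of the axis genes, near the 26.2% called of all genes, and the other 1482 called genes did not pass the limma test between NI and shSCR.

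Genes with a match to the seed of 1 guide were compared next. The letters searched were GAATTTA for shCPSF3#1 and TGTTCAA for shCPSF3#2, the reverse complements of the seeds, on the sense strand of the longest annotated 3′ UTR of each of 9257 listed genes. The site of shCPSF3#1 occurred in 1290 (13.9%) and that of shCPSF3#2 in 1177 (12.7%). In the 967 genes with the shCPSF3#1 site alone, the median log2 difference shCPSF3#2 minus shCPSF3#1 was -0.0121, with 13.4% called higher and 11.8% called lower. In the 854 genes with the shCPSF3#2 site alone it was -0.0484, with 13.1% higher and 13% lower. In the 7113 genes with neither it was -0.00209, with 14.5% higher and 11.8% lower. Against shSCR, the median log2 difference with shCPSF3#2 was 0.0211 in the 967, 0.0429 in the 854 and 0.0248 in the 7113. With shCPSF3#1 it was 0.0397 in the 967, 0.114 in the 854 and 0.0297 in the 7113. Genes with a site had longer UTRs (medians of 2540 and 2296 bases, against 1019 with neither). A match is a description of letters, not of binding. Ercc6, with the 15-base run of the shCPSF3#1 target, was at 32.1 and 28.6 with shCPSF3#1 and at 28.0 and 33.2 with shCPSF3#2 (log2 difference 0.01, adjusted p = 0.978). Tmem161a, with the 14-base run of the shCPSF3#2 target, was at 43.5 and 47.5 with shCPSF3#1 and at 39.8 and 37.0 with shCPSF3#2. Its log2 difference was -0.24 (limma adjusted p = 0.166), and with shSCR it was at 39.7 and 33.6.

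Splicing was measured as percent spliced in (PSI), the share of reads over an event that include the exon or intron. Of 149701 events with enough reads of both forms, 18 (0.012%) in 16 genes differed between the hairpins by limma on inclusion and exclusion reads (adjusted p under 0.05), 5 higher and 13 lower with shCPSF3#2, and 10313 had an unadjusted p under 0.05. On simulated events with fewer reads, this test recovered only 2.17% of log2 changes of 1 and 21.1% of those of 2. The gene test recovered 85% and 96%. The event and gene counts therefore cannot be compared, and an event that was not called may still differ. Without the block 0 events were called by limma (8605 unadjusted), 7 without shCPSF3#1 replicate 1, 1 without shCPSF3#1 replicate 2, and 0 without either shCPSF3#2 library (9703 and 7479 unadjusted). Of the 18, 10 also met the study's PSI rule, a difference of at least 10 between means and at least 5 between the nearest libraries. By that rule alone, which is no test, 953 of 409934 covered events (0.232%) differed, 506 higher and 447 lower, in 275 cassette exons, 230 introns, 220 alternative 3′ splice sites and 228 alternative 5′ splice sites.

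Itga6 had the largest difference among the cassette exons called. Its 130-nt exon (chr2:71853534-71853663), which sets the cytoplasmic tail of integrin α6, was included at 79.5 and 69.5% with shCPSF3#1, 39.4 and 36.7% with shCPSF3#2 and 23.4 and 18.8% with shSCR. The groups did not overlap, and the difference was -36.5 PSI (adjusted p = 0.00591). The 63-nt exon of Plod2 (chr9:92601985-92602047), a lysyl hydroxylase of collagen, was included at 93.7 and 90.9% with shCPSF3#1, 77.7 and 65.5% with shCPSF3#2 and 60.2 and 30.0% with shSCR (adjusted p = 0.00591). An exon of Pkm (chr9:59675029-59675195), pyruvate kinase, in which a pair of exons is used in exchange, was at 26.5 and 21.1% with shCPSF3#1, 12.1 and 5.77% with shCPSF3#2 and 11.4 and 4.20% with shSCR (adjusted p = 0.0339). In all 3, shCPSF3#1 was the group farther from shSCR. Nelfa, a subunit of the complex that pauses RNA polymerase II, went the other way: its 162-nt exon was at 87.0 and 81.0% with shCPSF3#1, 98.9 and 97.7% with shCPSF3#2 and 98.8 and 99.1% with shSCR (adjusted p = 0.0172). An intron of Morf4l2, a chromatin factor, was retained at 52.3 and 39.5% with shCPSF3#1, 20.9 and 14.8% with shCPSF3#2 and 13.7 and 8.57% with shSCR (adjusted p = 0.00591).

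At Inpp4a shCPSF3#2 was the group apart. The use of the 2 neighbouring 5′ splice sites of Inpp4a, a phosphoinositide phosphatase, differed by 39.1 PSI, and 1 of them was used at 43.4 and 34.7% with shCPSF3#2, at 0 and 0% with shCPSF3#1 and at 1.78 and 0% with shSCR (adjusted p = 0.0336). Between 31 and 53 reads per library lay behind these values, and the sites appear as 2 of the 18 calls. Over the 18, the shCPSF3#2 mean lay between shCPSF3#1 and shSCR in 14. Over the 953 events past the PSI rule it did so in 39.2%, with shSCR between the hairpins or equal to one of them in 48.5%. With 50 or more reads in each library, it did so in 53.4% of 313 such events, against 33.3% of all events that differed.

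Short exons were among those that differed. The exons of at most 30 bases named here are shown in full on the transcript strand (mm10), because whole exons of this size are included or left out.
Afdn exon, chr17:13848355-13848375, plus strand: GAAGTAGACCAGGTTGATCAG
Kifc3 exon, chr8:95100647-95100673, minus strand: CCTGACAGCTGGGGCTGCAGTCTCCAG
Pcnt exon, chr10:76403624-76403644, minus strand: TGCGTCCAGTTAGACGAGGAG
The exon of Afdn, afadin of cell junctions, was at 77.5 and 59.5% with shCPSF3#1 and at 57.3 and 18.6% with shCPSF3#2 (adjusted p = 0.0455), and that of Kifc3, a minus-end motor, at 98.0 and 93.9% and at 93.2 and 72.4% (adjusted p = 0.0336). In both, the nearest libraries of the 2 groups were only 2.12 and 0.71 PSI apart, and replicate 2 differed more. The exon of Pcnt, a centrosome scaffold, had a like pattern, at 82.9 and 64.3% and at 61.8 and 28.9%, and was not called (adjusted p = 0.280). Numa1, a spindle protein, had its 42-nt exon at 94.2 and 80.2% with shCPSF3#1 and at 80.1 and 38.5% with shCPSF3#2 (adjusted p = 0.00591), with 0.11 PSI between the nearest libraries.

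**Figure D5:**
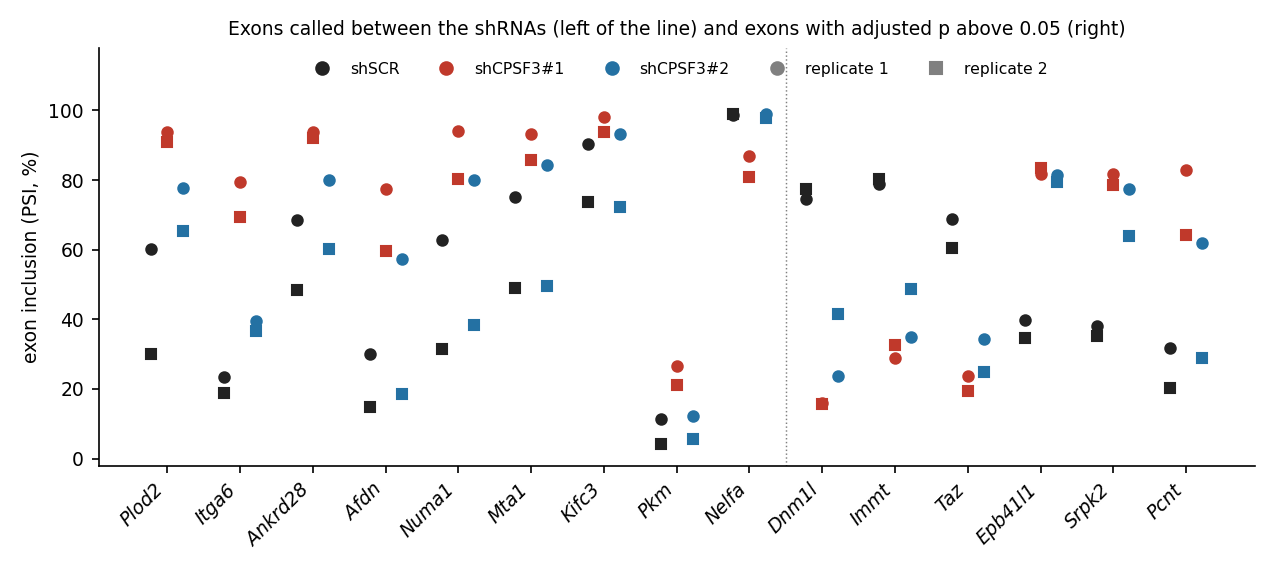
Exon inclusion (PSI, percent) in shSCR, shCPSF3#1 and shCPSF3#2, 1 point per library (circle, replicate 1; square, replicate 2), for exons called between the hairpins (left of the dotted line) and exons picked from earlier results of the knockdown that were not called (right). For Itga6 the shCPSF3#1 libraries are at 79.5 and 69.5 and those of shCPSF3#2 at 39.4 and 36.7; for Epb41l1 all 4 lie between 79.5 and 83.5.

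Among exons picked from earlier results of the knockdown in these data, those of Plod2 and Afdn were called between the hairpins, and the others were not, although some differed by over 10 PSI. The 408-nt exon of Epb41l1, a cytoskeletal linker, was at 81.8 and 83.5% with shCPSF3#1 and at 81.4 and 79.5% with shCPSF3#2, against 39.7 and 34.5% with shSCR (a difference of -2.15 PSI, adjusted p = 0.905 between the hairpins). Dnm1l, the GTPase of mitochondrial fission, had its 33-nt exon at 16.1 and 15.7% with shCPSF3#1 and at 23.7 and 41.5% with shCPSF3#2, against 74.7 and 77.4% (16.7 PSI, past the PSI rule, adjusted p = 0.259). Immt, a protein of mitochondrial cristae, was at 29.0 and 32.7% and at 34.9 and 48.6%, against 78.8 and 80.3% (10.9 PSI, adjusted p = 0.614). In each exon the shCPSF3#2 mean was nearer to shSCR, and shCPSF3#2 replicate 2 was the nearest of the 4. Replicate 2 was also nearer to shSCR than replicate 1 in the shUL1 groups, with Dnm1l at 29.9 and 41.0% in shUL1#1 and at 25.1 and 38.6% in shUL1#2, so the replicate and the Cpsf3 level cannot be told apart here. The same held for Srpk2, Pcnt, Wasf3 and, for the mean alone, Taz. Of 6450 events (4.31%) called for the mean of both hairpins against shSCR, shCPSF3#2 was nearer to shSCR in 4686 (72.7%, against 56.3% of all events tested), and their median distance from shSCR was 4.68 PSI with shCPSF3#1 and 3.88 PSI with shCPSF3#2.

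On the splicing axis from NI to shSCR, over 4452 events chosen without the shCPSF3 libraries, the shCPSF3#1 libraries were at 0.421 and 0.438 and the shCPSF3#2 libraries at 0.493 and 0.597. In replicate 1, with Cpsf3 at 38.6 and 42.4, the hairpins were thus apart in the same direction as in replicate 2. shCPSF3#2 was further along in 2860 of these events (64.2%, against 52.6% of all covered events that differed), with a median of 1.5 PSI.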

How the data were processed

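RNA-seq libraries of reprogramming MEFs were aligned by the authors to mm10 (STAR 2.7.1a). The deposited signal values are scaled CPM from edgeR 3.16.5, for genes that passed the authors' minimum level and variation, so genes outside that list were not analysed here. The authors' vast-tools table gives PSI as a percent, with a quality score and read numbers per event. All values of the 12 libraries were whole multiples of 1 step (tolerance 0.01), which would put 98882289 to 108390722 reads on listed genes if 1 step is 1 read. That reading was not established, so no count test was run, and the totals serve only to scale the Cpsf3 exon reads. The interval given for Cpsf3 comes from the limma fit and covers the spread between libraries that is left after the replicate block.

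Genes were tested with limma 3.58.1 (R 4.3.3) on log2(scaled CPM + 1), with group and replicate block over the 10 day-12 libraries, contrast shCPSF3#2 minus shCPSF3#1, Benjamini-Hochberg adjusted p under 0.05. Events with at least 10 reads in every library, and at least 10 of each form in all (a minimum chosen after seeing the files), were tested with weighted limma on log2 ratios of inclusion to exclusion reads, each plus 1. Scripts were tested on simulated data. The gene test recovered 85% of 100 simulated log2 changes of 1 and 96% of 100 of 2. In simulated events with fewer reads, the event test recovered 2.17% of 92 changes of 1 and 21.1% of 95 of 2. In those with more reads it recovered 25% of 8 and 100% of 5. Replicate numbers paired the day-12 libraries, since deviations of same-numbered libraries from their group means correlated at 0.674 to 0.949 between groups over genes, and at only 0.115 to 0.246 over events, and the labels give the numbers. Axis positions are projections on the line from the NI mean to the shSCR mean.

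Genes named were Cpsf3, Hnrnpul1, the 12 largest rises and 12 largest falls among called genes without overlap, the 5 smallest adjusted p, up to 6 called members per list and all cleavage factors. Others were named after their values were seen. Events named were those of Cpsf3, the called ones and exons picked from earlier results of the knockdown. Members and lists were chosen with earlier results of these data known. Sequences of the hairpins are the study's, and coordinates and UTRs come from the mm10 annotation. 1 sample's time field and title disagreed, and the title was used. Some genes that the rule names are not reported here.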

Additional observations from a re-analysis of the deposited data

How the results depend on the processing

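The count of 2470 genes was 2470, 2465 and 2581 with a pseudocount of 0.5, a pseudocount of 5 and median-of-ratios scaling, and 2470 with a mean of at least 10 scaled CPM. It was 0 with no replicate block (794 unadjusted), 0 with the Cpsf3 level as a covariate (1423 unadjusted), 1111 in the 4 libraries alone (991 shared with the 2470) and 407 with all 12 libraries. Leaving out 1 library gave 188 to 3906 genes. A lone library was then assumed to vary like the other groups. For Cpsf3, leaving out 1 library gave differences from 0.10 to 0.65, and only the fit without shCPSF3#2 replicate 1 gave a call (0.65). The 18 events became 0 with no replicate block (8605 unadjusted), 0 on the PSI scale (8544), 0 over all covered events (39357, an alternative chosen after seeing the data), and 0 to 19 with 1 library left out; they were 20 in the 4 libraries alone (8 shared) and 19 at the stricter score. The PSI rule gave 367 events at 15 PSI, 2001 with no minimum range, 609 at the stricter score and 3944 to 4268 with 1 replicate only. The share of responsive genes with shCPSF3#2 nearer to shSCR ran from 84.9% to 94.2%, and the axis difference from 0.11 to 0.161. Of the cleavage factors that were not called, 5 changed sign. Leaving out 1 library gave Cpsf2 -0.08 to 0.31 (called without shCPSF3#1 replicate 1, adjusted p = 0.0372), Sympk -0.10 to 0.11, Pabpn1 -0.13 to 0.15, Ssu72 -0.07 to 0.09 and Ppp1cb -0.38 to 0.19. Sympk was -0.0045 with median-of-ratios scaling and -0.04 with the covariate, and Pabpn1 -0.10 with the covariate. Where no value shows a cause, the cause was not tested. The edgeR and DESeq2 alternatives were not run.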

Other observations

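Genes of the unfolded protein and amino acid response, which adjust translation and amino acid supply, went both ways. Of 17 listed members, 3 were higher with shCPSF3#2 and 4 lower, against 14.4% and 11.8% of all genes. Without shCPSF3#1 replicate 1 they were 6 and 4, without shCPSF3#1 replicate 2 1 and 1, without shCPSF3#2 replicate 1 4 and 0, and without shCPSF3#2 replicate 2 0 and 0. Asns, which makes asparagine, was at 57.1 and 70.7 scaled CPM with shCPSF3#1 and at 82.0 and 162.5 with shCPSF3#2 (limma log2 difference 0.85, adjusted p = 0.0153). Slc7a11, a cystine transporter, was at 149.4 and 33.4 with shCPSF3#1 and at 35.4 and 18.0 with shCPSF3#2 (-1.45, adjusted p = 0.0251), so shCPSF3#1 replicate 1 stood apart from the other 3 libraries.

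Hist1h2bc, a histone gene, was at 141.0 and 117.3 with shCPSF3#1, at 105.5 and 60.2 with shCPSF3#2 and at 38.2 and 29.9 with shSCR (limma log2 difference -0.68, adjusted p = 0.0190). It was 1 of 3 listed histone genes, where 11.8% of all genes were lower, and 0 of the 3 were called by limma without either replicate 2 library.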
